A study of Mus musculus with 9 samples.

Results

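Ribosome footprints were followed on 9 genes that set up or maintain the macrophage lineage, out of 16921 genes measured in TTP-deficient macrophages. The genes were taken by symbol. They are the transcription factors Spi1, Runx1, Cebpa, Cebpb and Cebpd and the receptor genes Csf1r, Csf2ra, Csf2rb and Csf3r. All 9 were found, and 8 of them reached a fitted mean of at least 10, as did 10202 genes in all. Csf3r did not, and is given by its values only. Among the genes that reached this mean, footprints were dense on Spi1, Csf1r, Cebpb and Csf2ra and near the middle on Runx1, Cebpd and Csf2rb. They were sparse on Cebpa and near the floor on Csf3r. Between the 3 groups the differences were small. Only Spi1 passed the test, with 1.28-fold more footprints in GFP–TTP-AA than in GFP–TTP macrophages (adjusted p = 0.031, Wald test), and this call was lost when the 3 comparisons were adjusted together (adjusted p = 0.052).

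PU.1, the product of Spi1, and the C/EBP proteins are transcription factors that together open and activate the genes of myeloid cells, and Runx1 acts before and beside them in blood cell development. The receptor for M-CSF, encoded by Csf1r, is a tyrosine kinase on which macrophages depend for survival, and the receptors for GM-CSF and G-CSF are cytokine receptors that signal through Janus kinases. PU.1 is a known activator of Csf1r and of the GM-CSF receptor genes. Tristetraprolin (TTP), encoded by Zfp36, binds AU-rich elements in 3′ untranslated regions and promotes the decay of the mRNA, and its phosphorylation by the kinase MK2 limits this activity.

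RiboSeq, the sequencing of mRNA fragments that ribosomes protect from nuclease, was performed in 9 libraries, 3 for each of 3 groups. All groups descended from bone marrow macrophages of TTP-deficient mice, grown for 10 days with M-CSF at 10 ng/ml, immortalized with the oncogenes hcmyc and hRasG12V and selected for CD11b and F4/80. They carried doxycycline-inducible vectors for GFP alone (GFP-only), for GFP fused to TTP (GFP–TTP) or for GFP fused to the mutant with S52A and S178A, which lacks 2 sites of phosphorylation (GFP–TTP-AA). Every library came from cells given doxycycline (1 µg/ml) for 6 h and LPS (1 µg/ml), a bacterial cell wall component, for 1 h. There was no group without LPS and none of wild-type cells, and since each vector was transduced separately, the effect of the construct and other differences between the transduced populations cannot be told apart. The oncogenes and the M-CSF culture were shared by all groups and were not varied.

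The deposited values are those that the authors' DESeq2 model fitted to each gene and library. They summed to between 2570292 and 12804501 per library. A level below is a fitted value after division by the library's size factor. Because the model has 1 term per group and 1 per replicate number, libraries with the same number keep the same order in every group, and the scatter of the single counts is not seen in them. The error of each difference is the standard error that the authors' tables give, and the fold changes are shrunken towards 0 by the model. Zfp36 was higher in both groups with a TTP vector, with levels of 440.1 to 507.2 in the GFP-only group, 888.3 to 1024 in the GFP–TTP group and 1464 to 1663 in the GFP–TTP-AA group. It was higher in GFP–TTP-AA than in GFP–TTP by 0.72 on the log2 scale (SE 0.25, adjusted p = 0.044, Wald test), so that in this comparison the mutation and the amount of TTP footprints cannot be told apart, though the call was lost when the 3 comparisons were adjusted together (adjusted p = 0.071). At the level of protein, the authors reported similar amounts of both fusion proteins by western blot. Over the genes that reached a fitted mean of 10, the median level was 143.4 per kilobase of coding sequence. Zfp36 was at 483 on that scale in the GFP-only group, whose cells are labelled TTP-deficient. This level is not that of an absent transcript, and counts per gene do not show which part of Zfp36 the footprints cover, so that Zfp36 does not check the deficiency itself. Of 42 macrophage genes 36 reached the fitted mean of 10, among them Itgam, which encodes CD11b, at 2988 in GFP-only macrophages, and Emr1, which encodes F4/80, at 3688. Dendritic cell, mast cell, lymphocyte and fibroblast markers had 0 genes at that mean, and the summed level of each of these lists was at most 4.53 in any library. Of the erythroid and megakaryocyte markers 1 of 7 was tested, Pf4, and it did not pass in any comparison.

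AU-rich elements are shown for the members that hold them, because they are the kind of site that TTP recognises. The motifs searched on the sense strand of each 3′ untranslated region were the pentamer ATTTA, the heptamer TATTTAT, which contains it, and the nonamer TTATTTATT, which contains both. The heptamer was found 4 times in 2 of the 9 genes, 3 times in Runx1 and 1 time in Cebpd. Below are the sites with their flanks from the GENCODE transcripts on GRCm38, 5′ to 3′, with the heptamer in capitals.
Runx1 site 1, chr16:92605098-92605126, minus strand: aaatccctagaTATTTATgtatcttgatg
Runx1 site 2, chr16:92603110-92603138, minus strand: attcaagccccTATTTATaattttaacac
Runx1 site 3, chr16:92602279-92602307, minus strand: aaactcaattgTATTTATgtatgtaaata
Cebpd site 1, chr16:15889228-15889256, plus strand: ggttggacattTATTTATtgtaacagaac

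The Cebpd site is flanked by T on both sides and so forms the nonamer, and none of the 3 Runx1 sites does. Among genes that reached a fitted mean of 10, 9941 had an annotated 3′ untranslated region, and of these 27.8% held the heptamer and 7.17% the nonamer. Long regions hold more of them. The region of Runx1 has 4189 bases, and of 744 genes with a region of similar length (the shorter at least 0.8 times the longer) 60.5% held the heptamer. That of Cebpd has 2900 bases, and of 1178 genes of similar length 51.1% held the heptamer and 13.0% the nonamer. The pentamer was held by 66.7% of the 9941 genes. It was found 14 times in Runx1, 7 times in Cebpd and 3 times in Csf1r. The medians of genes with a region of similar length were 7, 5 and 3 in the same order. Spi1, Cebpa, Cebpb, Csf2ra, Csf2rb and Csf3r held neither pentamer nor heptamer in the annotated region, which was between 362 bases in Spi1 and 1816 bases in Csf2rb. Of genes with a region of similar length, between 42.2% (for Spi1) and 89.1% (for Csf2rb) held the pentamer. A match is a stretch of letters and not a measured binding site.

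**Figure D1:**
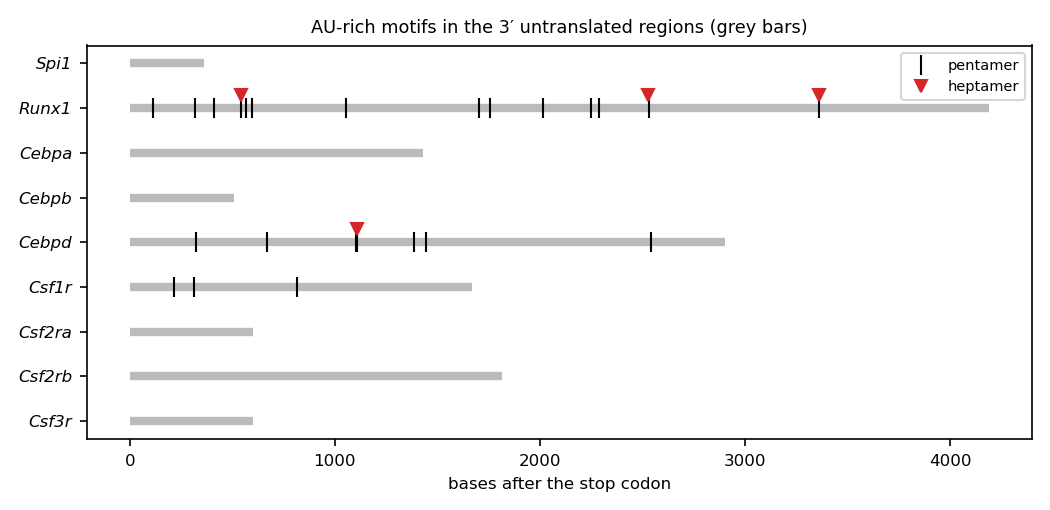
Map of the 3′ untranslated regions of the 9 genes, with bases after the stop codon on the x axis, 1 grey bar per gene, black ticks for the pentamer and red triangles for the heptamer. Runx1 has 14 pentamers and 3 heptamers, Cebpd has 7 and 1, Csf1r has 3 and 0, and the other 6 genes have none.

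Levels were compared between genes per kilobase of coding sequence. On that scale, as the geometric mean over all 9 libraries, Spi1 stood first at 2990 per kb, followed by Csf1r at 2359 and Cebpb at 2151. Their ranges over the libraries overlapped (2227 to 3855 for Spi1, 1872 to 2839 for Csf1r and 1869 to 2513 for Cebpb). Ranges of fitted values lack the scatter of the counts, and whether these genes differ was not tested. All 3 lay above at least 94.6% of the 10060 genes that reached a fitted mean of 10 and had a known coding length. The median of those genes was 143.4 per kb. Csf2ra followed at 738 per kb, 2.92-fold below Cebpb and with no overlap on either side. Runx1 at 172, Cebpd at 153 and Csf2rb at 125 per kb formed the middle, and each overlapped the next. Cebpa at 11.9 per kb was 10.5-fold below Csf2rb and above only 5.71% of the genes. Csf3r, the receptor for G-CSF, came last at 0.757 per kb, 15.8-fold below Cebpa.

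**Figure D2:**
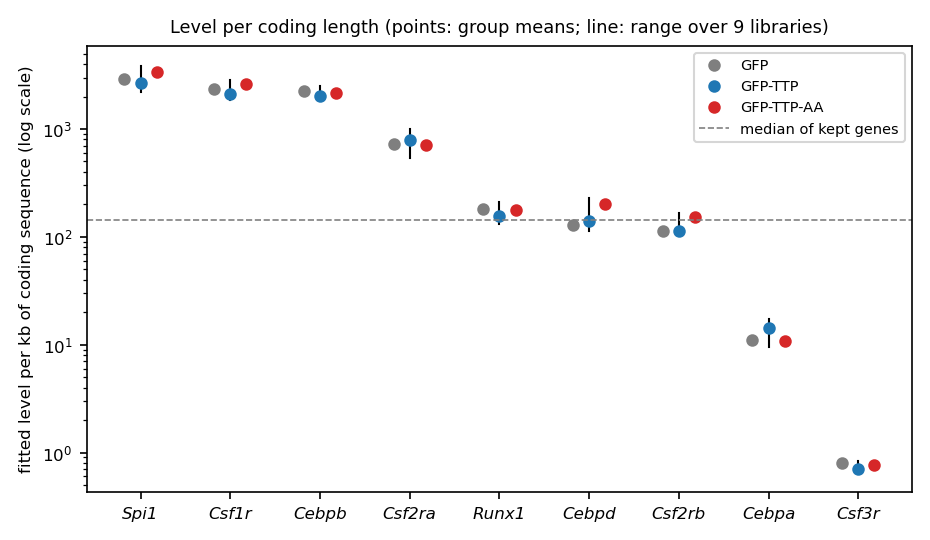
Fitted level per kilobase of coding sequence on a log axis for the 9 genes in falling order, with 1 point per group mean, a line for the range over the 9 libraries and a dashed line at 143.4, the median of the genes that reached a fitted mean of 10. Spi1, Csf1r and Cebpb lie together, at 1869 or more in all libraries, and Csf3r lies below 1.

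Spi1 encodes PU.1, and lies on chromosome 2 of GRCm38, the build of all positions given here, from 91082390 to 91115756. Its levels were 1991, 2511 and 2731 in the GFP-only libraries 1, 2 and 3. In GFP–TTP macrophages they were 1818, 2292 and 2493. In GFP–TTP-AA macrophages they were 2339, 2933 and 3146. Replicate 1 was the lowest and replicate 3 the highest in each group, and GFP–TTP-AA overlapped with both other groups. At the same replicate number GFP–TTP-AA was above GFP–TTP by 0.35 on the log2 scale (SE 0.12, 95% interval 0.12 to 0.58, adjusted p = 0.031, Wald test). The call was lost when the 3 comparisons were adjusted together (adjusted p = 0.052). Against GFP-only macrophages the difference was 0.22 in GFP–TTP-AA (SE 0.12, adjusted p = 0.38) and -0.13 in GFP–TTP (SE 0.12, adjusted p = 0.75, same test). Fewer cells of a type and less RNA per cell cannot be told apart in bulk libraries, and footprints alone do not separate the amount of an mRNA from its translation. The summed level of the 40 measured genes of the macrophage list was highest in GFP–TTP-AA and lowest in GFP–TTP macrophages, as was that of Spi1. It was 175946 to 194713 in the GFP-only group, 147292 to 161145 in the GFP–TTP group and 185882 to 210682 in the GFP–TTP-AA group, and its part in the difference of Spi1 was not tested. Lyz2, a lysozyme gene, made up much of the sum, with mean levels of 64474, 46296 and 71249 in the same order. Without it the sums were 118221 to 127712, 105843 to 114550 and 122800 to 133599. Of the 36 genes of this list that were tested, 27 had values above 0 in GFP–TTP-AA over GFP–TTP and 9 below. Among the 9 were Itgam, Itgb2, Trem2, Ptprc and Fcgr3. Of the 9 only Ptprc passed (-0.45, adjusted p = 0.017, same test).

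Runx1 encodes a DNA-binding subunit of core binding factor and lies on chromosome 16 from 92601466 to 92826149. In GFP-only macrophages its levels were 212, 292 and 263 in replicates 1, 2 and 3. In GFP–TTP they were 183, 252 and 227, and in GFP–TTP-AA 209.7, 287 and 255. Replicate 2 was the highest in each group and the groups overlapped. Its log2 difference from the GFP-only group was -0.21 in GFP–TTP (95% interval -0.54 to 0.12, adjusted p = 0.70, Wald test) and -0.03 in GFP–TTP-AA (95% interval -0.36 to 0.30, adjusted p = 0.98, same test). Thus no difference was detected in the gene with the most heptamers of the 9, and the interval for GFP–TTP reached a fall of 0.54.

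The C/EBP genes differed widely in level. Cebpb, a C/EBP factor of macrophage activation, lies on chromosome 2 from 167688915 to 167690418, and had levels of 1934, 1818 and 2232 in GFP-only macrophages. They were 1766, 1659 and 2037 in GFP–TTP and 1898, 1774 and 2147 in GFP–TTP-AA macrophages. The groups overlapped, and the 3 log2 fold changes lay between -0.13 and 0.09 with an SE of 0.19 each. Counts per gene do not tell the long and short protein forms of Cebpb apart, which start at different codons of the same mRNA.

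Cebpd, a C/EBP factor that inflammatory signals induce, lies on chromosome 16 from 15887286 to 15891031. Its levels were 102.1, 90.2 and 119.1 in GFP-only macrophages. They were 112.4, 99.3 and 131.1 in GFP–TTP, which overlapped with GFP-only, and 160.2, 140.8 and 183.3 in GFP–TTP-AA, which were above all 6 other libraries. The log2 fold change of GFP–TTP-AA was 0.64 over GFP-only (SE 0.24, 95% interval 0.17 to 1.11, adjusted p = 0.13, Wald test) and 0.50 over GFP–TTP (SE 0.24, 95% interval 0.03 to 0.97, adjusted p = 0.19, same test). Neither passed. Of all 10202 genes 7.86% had their 3 GFP–TTP-AA libraries above the 6 others, which in fitted values follows from the group terms and the replicate terms. The value over GFP-only was the largest of the members and above 97.4% of all genes in absolute size. Chromosome 16 genes had medians of 0.12 and 0.15 in these comparisons, and with them subtracted Cebpd was at 0.52 and 0.35.

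Cebpa, which is needed for the formation of granulocyte and monocyte precursors, lies on chromosome 7 from 35119293 to 35121928. Its levels were 10.9, 14.3 and 10.7 in GFP-only macrophages, 14.2, 18.6 and 13.8 in GFP–TTP and 10.8, 14.1 and 10.3 in GFP–TTP-AA. Replicate 2 was the highest in each group, and the groups overlapped. The log2 fold change of GFP–TTP over GFP-only was 0.38 (SE 0.24, adjusted p = 0.60, Wald test), and that of GFP–TTP-AA over GFP–TTP was -0.40 (SE 0.24, adjusted p = 0.32, same test). Fitted counts were 5.83 to 27.7 per library, and the interval for GFP–TTP-AA over GFP–TTP ran from -0.87 to 0.07. These standard errors belong to shrunken estimates, and Cebpd, at higher levels, had the same 0.24.

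Among the receptors, Csf1r lies on chromosome 18 from 61100598 to 61132149. In GFP-only macrophages its levels were 7408, 6167 and 7297 in replicates 1, 2 and 3. They were 6592, 5488 and 6493 in GFP–TTP and 8321, 6889 and 8037 in GFP–TTP-AA macrophages. Replicate 2 was the lowest in each group, and the 2 other GFP–TTP-AA libraries were above all libraries of the other groups. The log2 fold change of GFP–TTP-AA was 0.32 over GFP–TTP (SE 0.15, 95% interval 0.03 to 0.62, adjusted p = 0.18, Wald test) and 0.16 over GFP-only (SE 0.15, adjusted p = 0.74, same test). In GFP–TTP over GFP-only it was -0.17 (SE 0.15, adjusted p = 0.76, same test).

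Csf2rb encodes the signalling β chain of the GM-CSF receptor, which it shares with the receptors for IL-3 and IL-5, and lies on chromosome 15 from 78325752 to 78353847. Its levels were 277.9, 299.7 and 339.2 in GFP-only macrophages and nearly the same in GFP–TTP, at 276.9, 298.6 and 338.0. In GFP–TTP-AA macrophages they were 377, 405 and 452, above all libraries of both other groups. Of all 10202 genes 7.86% had this order, which in fitted values follows from the group and replicate terms. The log2 fold change of GFP–TTP-AA was 0.43 over GFP–TTP (SE 0.16, 95% interval 0.12 to 0.75, adjusted p = 0.063, Wald test) and 0.43 over GFP-only (SE 0.16, adjusted p = 0.13, same test). With the 3 comparisons adjusted together the difference over GFP–TTP did not pass either (adjusted p = 0.10, same test). With the median of chromosome 15 subtracted, which was -0.09 over GFP–TTP, the difference was 0.53 and passed (adjusted p = 0.018, same test).

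Csf2rb2, the neighbouring gene of the IL-3 specific β chain, shares 43.3% of the 28-base stretches of the Csf2rb coding sequence, and reads could be kept at up to 2 places, so that their footprints are only partly separable. Its levels were 224, 285 and 265 in the GFP-only group, 219, 278 and 258 in the GFP–TTP group and 312, 394 and 361 in the GFP–TTP-AA group. It rose in GFP–TTP-AA over GFP–TTP by 0.50 on the log2 scale (SE 0.18, adjusted p = 0.046, Wald test), and this call was lost with the 3 comparisons adjusted together (adjusted p = 0.075). With the levels of both genes summed the difference was 0.46, beside 0.43 for Csf2rb alone.

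The ligand-binding α chain, Csf2ra on chromosome 19 from 61223957 to 61228429, moved with the replicate number and not detectably with the group. Its levels were 859, 1089 and 647 in the GFP-only group, 927, 1175 and 698 in the GFP–TTP group and 841, 1060 and 621 in the GFP–TTP-AA group. The groups overlapped, with replicate 2 the highest and replicate 3 the lowest in each. Its log2 fold changes were 0.11 in GFP–TTP over GFP-only (95% interval -0.27 to 0.49), -0.04 in GFP–TTP-AA over GFP-only and -0.15 in GFP–TTP-AA over GFP–TTP (95% interval -0.53 to 0.23). Chromosome 19 genes had a median of 0.17 in the first of these, and with it subtracted Csf2ra was at -0.06. Per kilobase, the α chain stood above the β chain Csf2rb by 6.41-fold in the GFP-only group, 6.94-fold in the GFP–TTP group and 4.62-fold in the GFP–TTP-AA group. These ratios depend on how footprints shared by Csf2rb and Csf2rb2 were counted, and their differences between groups were not tested.

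Csf3r on chromosome 4 from 126024550 to 126044440 had fitted values of 0.834 to 4.23 in the 9 libraries. Its levels were 1.65 to 2.12, with means of 2.01 in the GFP-only group, 1.78 in the GFP–TTP group and 1.92 in the GFP–TTP-AA group. The groups overlapped. At this depth no difference could be tested, and 32.8% of the 28-base stretches of its coding sequence also occur in a transcript annotated as AC105061.2. Markers of neutrophils and their precursors were measured for 10 of 17 genes, with Mpo, Prtn3 and Ctsg below the fitted mean of 10. Their summed level was 345 to 448 in the GFP-only group, 338 to 439 in the GFP–TTP group and 461 to 610 in the GFP–TTP-AA group, most of it from Lcn2, Mmp9, Mmp8 and S100a8.

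**Figure D3:**
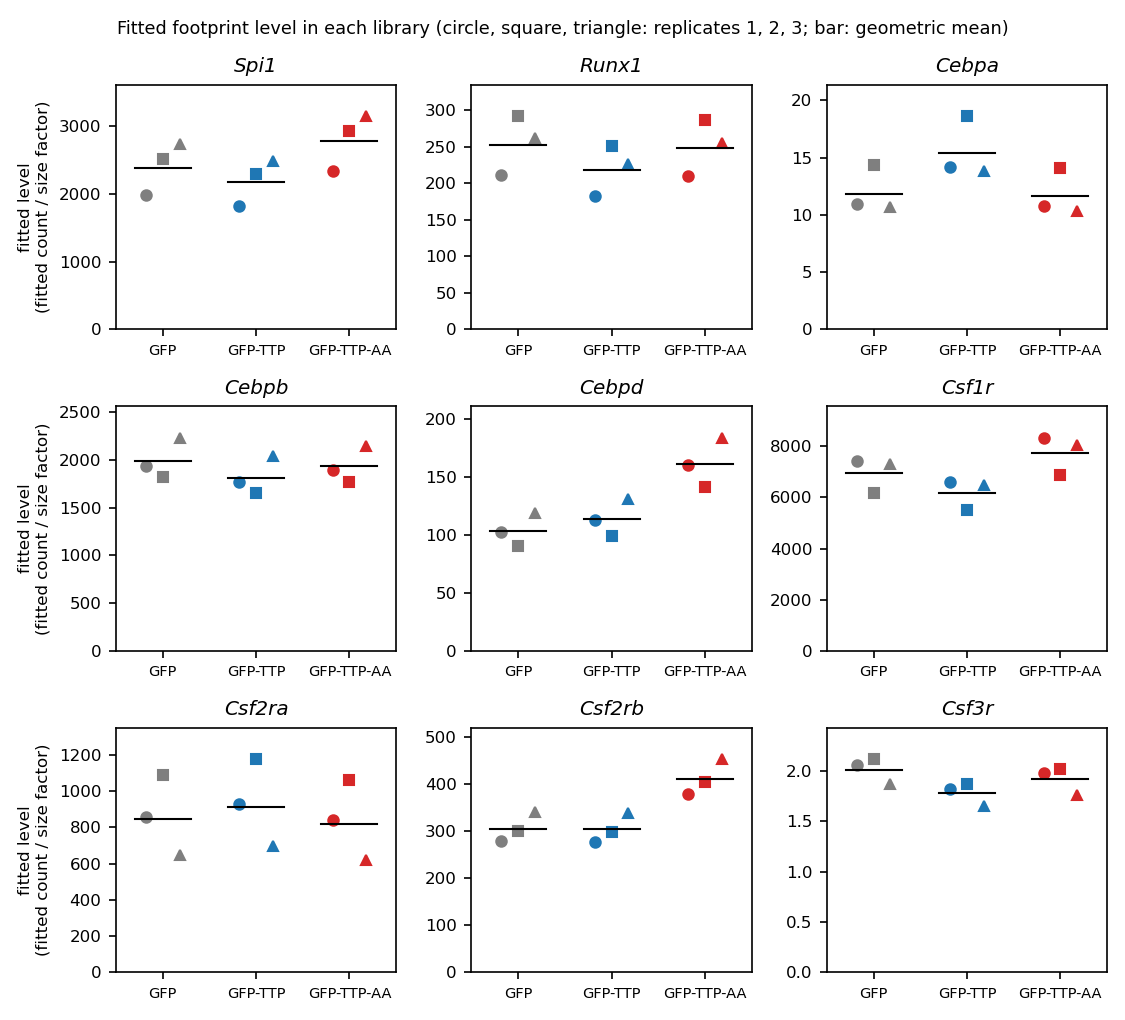
Fitted level (fitted count over size factor) of the 9 genes in each library, with linear axes from 0, circles, squares and triangles for replicates 1, 2 and 3 and a bar for the geometric mean of a group. Cebpd and Csf2rb are the genes whose 3 GFP–TTP-AA libraries all lie above the 6 others, and in Csf2ra the replicates of a group spread more than the groups. Of all 10202 genes 7.86% had all 3 GFP–TTP-AA libraries above the 6 others.

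GFP–TTP-AA was compared with GFP–TTP macrophages to ask how loss of the phosphorylation sites of TTP bears on these genes. Of the 8 genes tested 6 were higher and 2 lower in GFP–TTP-AA, and 1 passed the test, Spi1. This is 12.5% of the members, beside 10.3% of all 10202 genes (1055, of which 549 were higher and 506 lower), so that the share of calls was near the background. The count was 0 with the 3 comparisons adjusted together and 2 with each chromosome's median subtracted. The median log2 fold change of the members was 0.26, beside -0.01 for all genes. Csf1r, Csf2rb and Cebpd had unadjusted p-values below 0.05 as well and did not pass after Benjamini-Hochberg adjustment. Cebpa and Csf2ra were the genes with lower values, and neither passed.

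When GFP–TTP-AA was set against GFP-only cells, 0 of the 8 genes passed the Wald test, beside 3.13% of all genes (319 of 10202). Cebpd and Csf2rb had unadjusted p-values below 0.05. The log2 fold changes of the members lay between -0.04 and 0.64 with a median of 0.06, beside -0.01 for all genes. With 4 genes positive and 4 negative, the values of Runx1, Cebpa, Cebpb and Csf2ra were all between -0.04 and -0.03.

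When GFP–TTP was set against GFP-only cells, 0 of the 8 genes passed the Wald test and 0 had an unadjusted p-value below 0.05, beside 2.09% of all genes past the threshold (208 of 9939). The log2 fold changes lay between -0.21 for Runx1 and 0.38 for Cebpa. Their median was -0.07, beside 0.00 for all genes. The 3 comparisons share their groups and are not independent of each other.

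**Figure D4:**
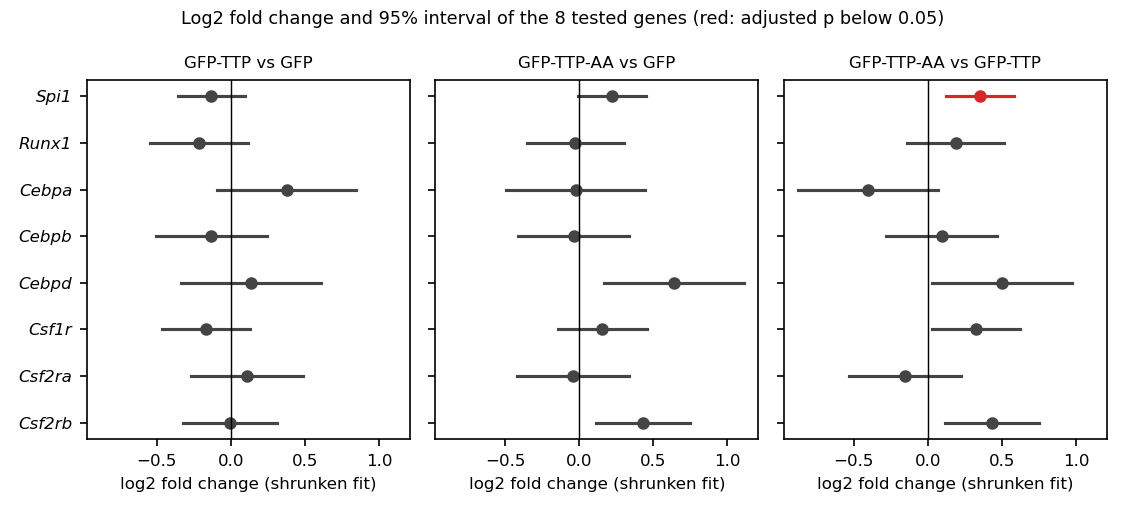
Log2 fold change (dot) with its 95% interval (line) for the 8 tested genes in the 3 comparisons, from the authors' fitted values and standard errors, in red where the adjusted p was below 0.05. Only Spi1 in GFP–TTP-AA against GFP–TTP is red, and the intervals of Cebpd and Csf2rb lie above 0 in both comparisons of GFP–TTP-AA.

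In the fitted values, the replicate number moved most members as much as the group. Both kinds of term are shrunken by the model, and whether by an equal amount is not known. The range between the 3 numbers was larger than that between the 3 groups in 6 of the 9 genes, and in 5 of the 8 tested. For Csf2ra it was 0.76 on the log2 scale between replicates 2 and 3, beside 0.15 between groups, and larger than in 95.6% of the genes. Cebpd showed the opposite order, with 0.39 between numbers and 0.64 between groups, the latter larger than in 93.1% of the genes. Over the 10202 genes that reached a fitted mean of 10, the medians were 0.29 between numbers and 0.27 between groups. What the replicate numbers stand for is not given in the labels, and the authors' model names the library date.

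**Figure D5:**
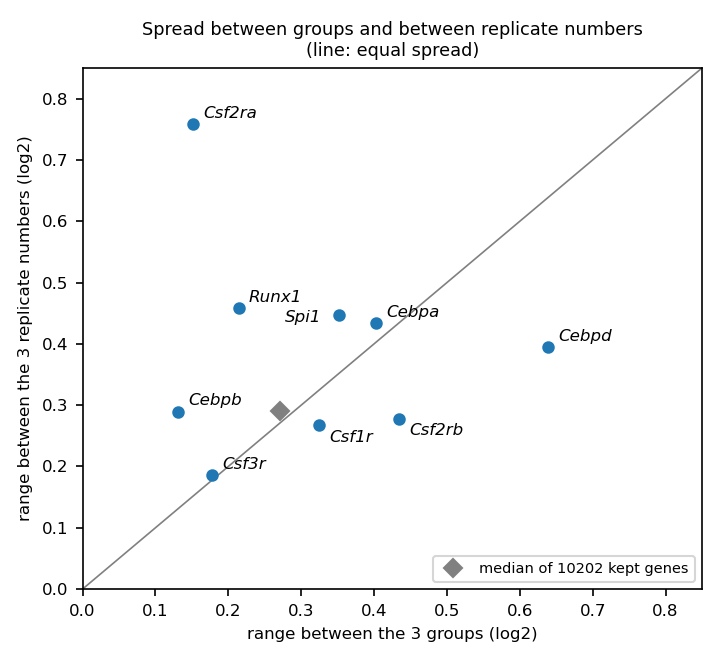
Range of the log2 level between the 3 groups (x axis) and between the 3 replicate numbers (y axis) for the 9 genes, with a line of equal spread and a grey diamond at the medians of 10202 genes (0.27 and 0.29). Csf2ra lies far above the line at 0.15 and 0.76, and Cebpd, Csf2rb and Csf1r lie below it.

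The ligands and partner receptors were measured beside the members. Csf1, which encodes M-CSF itself, had a mean level of 1885 in the GFP-only group, 1805 in the GFP–TTP group and 1853 in the GFP–TTP-AA group, or 1116 per kb over all libraries beside 2359 for its receptor. Its replicate 3 libraries, at 2437 to 2544, were above all others. Il34, the other ligand of the M-CSF receptor, was near the floor at 0.92, and so was Flt3, a related receptor, at 0.25. The GM-CSF gene Csf2 was at 6.13 and the G-CSF gene Csf3 at 19.2. Il3ra, the α chain of the IL-3 receptor, had levels of 62.6, 84.4 and 77.3 in the 3 groups in the same order and did not pass in any comparison. Adam17, a protease that sheds the M-CSF receptor from the cell surface among many other substrates, rose from 1112 in GFP-only to 1646 in GFP–TTP-AA macrophages (log2 fold change 0.57, SE 0.13, adjusted p = 0.0027, Wald test). It was also higher than in GFP–TTP (0.38, SE 0.13, adjusted p = 0.047, same test), a call that was lost with the 3 comparisons adjusted together (adjusted p = 0.077). Of the 14 genes of this list 6 were tested. In GFP–TTP-AA against GFP–TTP the test was passed by Adam17 and Csf2rb2 (33.3% beside 10.3% of all genes). Adam17 alone passed when GFP–TTP-AA was set against GFP-only cells (16.7% beside 3.13% of all genes). Between GFP–TTP and GFP-only cells 0 passed, beside 2.09% of all genes.

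Of 37 genes that act downstream of the CSF receptors, 35 were tested in GFP–TTP-AA against GFP–TTP macrophages, and 4 rose and 0 fell, which is 11.4% beside the 10.3% of all genes. The median was 0.14. Jak2, the kinase bound to the β chain, rose from 60.3 to 95.9 (log2 fold change 0.67, SE 0.23, adjusted p = 0.038, Wald test), and Socs3, an inhibitor of cytokine receptors, from 414 to 593 (0.52, SE 0.17, adjusted p = 0.034, same test). Ptpn6, the phosphatase SHP-1, also rose and was named after its values were seen. With the 3 comparisons adjusted together 1 of the 4 passed, and the calls of Jak2 (adjusted p = 0.063), Socs3 (adjusted p = 0.057) and Ptpn6 (adjusted p = 0.071) were lost. Between GFP–TTP and GFP-only cells 1 of 34 passed, beside 2.09% of all genes. Between GFP–TTP-AA and GFP-only cells 0 of 35 passed the Wald test, beside 3.13% of all genes.

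Other myeloid transcription factors were tested for 37 of 46 genes in GFP–TTP-AA against GFP–TTP macrophages, of which 5 rose and 2 fell (18.9% beside 10.3% of all genes). Id3 and Id2, which block helix-loop-helix factors, rose by 1.01 (adjusted p = 8.8e-06) and 0.79 (adjusted p = 0.00062, Wald test). Runx2, a relative of Runx1, fell by 0.72 on the log2 scale, from 83.2 to 50.6 (adjusted p = 0.024, same test), while Runx1 was at 0.19 and did not pass. Against GFP-only macrophages, Id3 rose in GFP–TTP-AA by 0.82 (adjusted p = 0.0017, same test). In that comparison 2 of 37 rose and 1 fell (8.11% beside 3.13% of all genes). Klf2 fell in GFP–TTP-AA by 0.76 (adjusted p = 0.027) and in GFP–TTP by 0.77 (adjusted p = 0.031, same test). In the latter comparison 2 of 36 fell and 0 rose (5.56% beside 2.09% of all genes).

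Macrophage surface and effector genes were tested for 36 of 42 genes. In GFP–TTP-AA against GFP–TTP macrophages 10 of 36 rose and 1 fell (30.6% beside 10.3% of all genes), with a median log2 fold change of 0.23. Emr1 rose by 1.21 (SE 0.16, adjusted p = 8.4e-12, Wald test), the cathepsin gene Ctss by 0.90 (SE 0.14, adjusted p = 6.5e-08) and Mpeg1, a pore-forming protein of phagocytes, by 0.84 (SE 0.17, adjusted p = 2.1e-05, same test). From GFP-only to GFP–TTP macrophages 6 of 34 fell and 0 rose (17.6% beside 2.09% of all genes, 80 higher and 128 lower), among them Lyz1 by 1.37, Fcgr1 by 0.95 and Emr1 by 0.68 (adjusted p = 8.7e-12, 0.0021 and 0.0026, same test). From GFP-only to GFP–TTP-AA macrophages 3 of 36 rose and 1 fell (11.1% beside 3.13% of all genes). Cd36 rose by 1.06 and Mpeg1 by 0.69, and Lyz1 fell by 1.85 (adjusted p = 0.0020, 0.0029 and 7.6e-22, same test). Emr1 encodes the protein by which the cells were selected, and Itgam, the other, had a log2 fold change of -0.01 in GFP–TTP-AA over GFP–TTP. Of the granulocyte markers S100a8 rose in GFP–TTP-AA by 1.04 over GFP-only and by 1.11 over GFP–TTP (adjusted p = 0.0029 and 0.00029, same test). It was the only 1 of 4 tested to pass in either (25% beside 3.13% and 10.3% of all genes in the same order). The part of these genes in the differences of the members was not tested.

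Genes with a fitted pattern like those of Csf1r and Spi1 were sought among the 8637 others with a fitted mean of at least 50, by Pearson's correlation of the log2 levels over the 9 libraries. For Csf1r these were Mrps28 (r = 0.9999), E430025E21Rik (r = 0.998) and Efcab14 (r = 0.996). For Spi1 they were Agpat2 (r = 0.990), Arf6 (r = 0.989) and Nat6 (r = 0.989). The fitted values of a gene follow only 2 group terms and 2 replicate terms, and these correlations are given as a description.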

How the data were processed

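The authors depleted rRNA, sequenced ribosome-protected fragments and mapped the reads to mm10 (GRCm38) with TopHat, keeping up to 2 alignments per read. The submitters' processing notes list Trim Galore, TopHat2 2.0.12, HTSeq and DESeq2 1.6.3. The deposited table of normalized counts holds a signal: after terms for group, replicate number and library, the SD of its log2 values was 1.6e-15, so the values are fitted levels times size factors (16932 lines, 11 of them repeats). Size factors (0.413 to 2.14) were recovered from 2056 genes with a fitted mean of at most 0.2. Of the authors' comparison tables only the standard error was used, on the log2 scale as deposited. Their means, fold changes, statistics and p-values were not used.

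The log2 fold change was the difference of group means of log2 levels, shrunken as in the authors' fit. It was divided by the standard error of the authors' DESeq2 model (Wald test, two-sided, normal) and adjusted by the Benjamini-Hochberg method over all genes that had a standard error and a fitted mean of 10 or more, at a threshold of 0.05. The test thus rests on the authors' fit and is not independent of it, and reads per library are unknown. Intervals are 1.96 standard errors. Levels per kilobase and motifs used the GENCODE transcript with the longest coding sequence. Genes named beside the members were, per list and comparison, the at most 3 with the largest change past the threshold at a fitted mean of at least 50, the ligands and related receptors, and the 3 most alike to Csf1r and Spi1. Some genes that this rule names are not reported here. Members and lists were chosen with earlier results of these data known. The method was tested on simulated data. For the Wald test the simulated noise had the same standard errors that the test used, and no shrinkage, so this does not check those errors. Python 3.11.15 with numpy 2.4.6, pandas 2.3.3 and scipy 1.17.1 was used.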

Additional observations from a re-analysis of the deposited data

How the results depend on the processing

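The alternatives were no filter, a fitted mean of at least 50, scaling to library totals, subtraction of the median of all genes or of each chromosome, adjustment over the 3 comparisons together, pseudocounts of 1 and 10, and Csf2rb summed with Csf2rb2. Of 228 values recomputed, 222 were counted as unchanged. For a fold change this meant the same direction and side of the threshold (or, without a test, a move of less than a standard error). The counts of all genes past the threshold were among the 222 although they moved. In GFP–TTP-AA against GFP–TTP that count was 1055 in the main setting, 846 with joint adjustment and 1079 without a filter. A filter or another adjustment cannot alter a fold change itself. With each chromosome's median subtracted, members past the threshold in GFP–TTP-AA against GFP–TTP numbered 2 and no longer 1, Csf2rb with 0.53 joining Spi1, while Csf2ra in GFP–TTP against GFP-only turned to -0.064 and Cebpb in GFP–TTP-AA against GFP-only to 0.00063, neither of them called. Adjusted over the 3 comparisons together, 0 members passed the Wald test (adjusted p = 0.052 for Spi1, whose log2 fold change stayed at 0.35, and 4 of 8 at an unadjusted p below 0.05). No paired analysis was possible because the files used hold fitted values, other than that of the authors' model, which already has the replicate number as a term, so that the standard errors used are those of a blocked fit. The fit without the replicate block and those leaving out 1 replicate could not be run. Reads per library are unknown, and what depth limits was not tested. The standard errors of the members were 0.12 to 0.24. They were largest, at 0.24, for Cebpa and Cebpd, which had the lowest levels of the tested members. They did not follow the level strictly, with 0.15 for Csf1r and 0.12 for Spi1.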
